A study of Bos taurus with 16 samples.

Results

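The interleukin-6, LIF and oncostatin signalling genes were described here as 10 named members: the ligands IL6, LIF, OSM and IL11, the receptor chains IL6R, IL11RA, LIFR, OSMR and IL6ST, and the inhibitor SOCS3. The members were taken as the probes of the array, control spots left out, whose gene name equals one of these symbols. Such probes existed for 9 of the 10 members, among 26554 gene names on the array, and IL11 had none. They amounted to 20 of 46615 probes and were printed on 23 spots.

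Circulating white blood cells (WBC) and endometrial biopsies were compared in 8 multiparous Holstein-Friesian cows at 45 to 55 days postpartum (DPP). The groups were WBC of healthy cows, WBC of cows with subclinical endometritis (SCE), endometrium of healthy cows and endometrium of SCE cows, with 4 cows each, and the same cows gave both tissues. SCE was assigned by histology in cows without clinical signs, and the groups were not balanced for the stage of the estrous cycle, which was not assigned to single cows here. WBC RNA came from blood collected in PAXgene tubes, and each of the 16 RNA samples was hybridized to a single-colour array. The healthy cows were numbers 841, 850, 877 and 883 and the SCE cows 718, 833, 836 and 846, and values are listed below in that order of cows.

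Cytokines of this family signal through receptor complexes that share gp130, the product of IL6ST. IL-6 and IL-11 bind a chain of their own, IL6R or IL11RA, and then recruit gp130, whereas LIF uses LIFR with gp130 and oncostatin M uses OSMR or LIFR with gp130. The complexes activate JAK kinases and STAT3, and SOCS3, itself induced by STAT3, binds gp130 and shuts the signal off. In the uterus the family is known for LIF and IL-11 in implantation and decidualization and for IL-6 in the response to bacteria.

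The RNA was read by 60-base probes, of which 1 is shown for each of 8 genes to show what kind of stretch was measured. The sequences are given 5′ to 3′ in lower case, with the coordinates and strand of the array file. The file's header names the build HGSC Btau_3.1, whereas the study's methods name UMD3.1 for the array design, so the build of these coordinates is in doubt. Whether a probe lies in an exon or a UTR was not assigned here.
IL6, chr4:32760426-32760485, plus strand: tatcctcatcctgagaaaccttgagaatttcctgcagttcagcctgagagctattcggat
LIF, chr17:72762266-72762325, minus strand: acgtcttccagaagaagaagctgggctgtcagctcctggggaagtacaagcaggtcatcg
OSM, chr17:72781822-72781881, minus strand: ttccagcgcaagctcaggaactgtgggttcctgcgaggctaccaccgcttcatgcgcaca
IL6R, chr3:17512332-17516692, minus strand: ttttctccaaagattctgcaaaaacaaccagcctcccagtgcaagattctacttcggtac
IL11RA, chr8:80245252-80245311, plus strand: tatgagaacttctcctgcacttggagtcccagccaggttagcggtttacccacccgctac
LIFR, chr20:38194535-38194594, plus strand: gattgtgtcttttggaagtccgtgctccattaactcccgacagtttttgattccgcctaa
IL6ST, chr20:24846675-24851551, plus strand: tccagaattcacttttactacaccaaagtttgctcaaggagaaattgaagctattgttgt
SOCS3, chr19:55418135-55418194, plus strand: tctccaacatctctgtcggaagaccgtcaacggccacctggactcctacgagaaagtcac
The LIF, OSM, LIFR, IL6ST and SOCS3 sequences are those of the probes whose levels are given first below. The IL6, IL6R and IL11RA sequences are those of dimmer probes. Their brighter probes, which give the levels below, lie at chr4:32760745-32760804, chr3:17504749-17504808 and chr8:80249605-80249664 in the same coordinates, and that of OSMR, for which no sequence is shown, at chr20:37770289-37770348. The LIF and OSM probes lie close together on chromosome 17, and the LIFR probe on chromosome 20, where OSMR and IL6ST also lie. The IL6R and IL6ST probes span more genome than their 60 bases.

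A further probe named IL6 carried an accession that the RefSeq gene table (ARS-UCD2.0) assigns to LOC517016 on chromosome 8, not to IL6 on chromosome 4. It is shown because its sequence and position differ from those of the IL6 probes.
IL6-named probe A_73_P048171, chr8:24746995-24747054, plus strand: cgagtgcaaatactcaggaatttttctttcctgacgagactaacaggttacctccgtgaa
This probe was not well above background on any of the 16 arrays, and IL6 is described below by its other probes.

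Levels are log2 normalized intensities (quantile normalization over the 16 arrays), and differences are differences of these log2 levels. Background was not subtracted from these intensities, so a fold of a dim probe is a fold of signal that includes background. A spot was called well above background by the scanner software. Each gene was described by its probe with the highest mean level, and levels were not compared between probes, since brightness depends on the probe. Between 64.7% and 79.8% of spots were well above background on an endometrium array and between 66.3% and 75.8% on a WBC array. The endometrium array of SCE cow 833 stood apart, with a median signal above background of 79 against 248 to 316 on the other endometrium arrays. The WBC array of the same cow had the highest median of the WBC arrays, 202.5 against 83 to 132 on the others. Each tissue had a slide of its own, so slide and tissue cannot be told apart. In these bulk samples, fewer cells of a type and less RNA per cell cannot be told apart either.

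The question of where the ligands and where the receptors were expressed was addressed by comparing the tissues. Of the 9 genes, 4 had a higher expression level in endometrium (OSMR, IL11RA, LIFR and IL6ST) and SOCS3 a higher level in WBC, while IL6, LIF, OSM and the brighter IL6R probe did not pass the test. The test was limma's TREAT with a fold threshold of 1.2 and a Benjamini-Hochberg adjusted p of at most 0.05 over all probes. Over all gene names, 23.9% were higher in endometrium and 31.5% higher in WBC, so a call between the tissues was common. By probe, 9 of 20 were higher in endometrium and 2 of 20 higher in WBC, against 22.7% and 31.2% of all probes. The calls of all probes divided into 42% higher in endometrium and the rest higher in WBC, and into 79.2% higher in endometrium when each tissue was normalized on its own. The median difference of all probes was -0.16 in the main scaling, 0.35 with each tissue normalized on its own, and -0.40 with scaling to the 75th percentile.

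**Figure D1:**
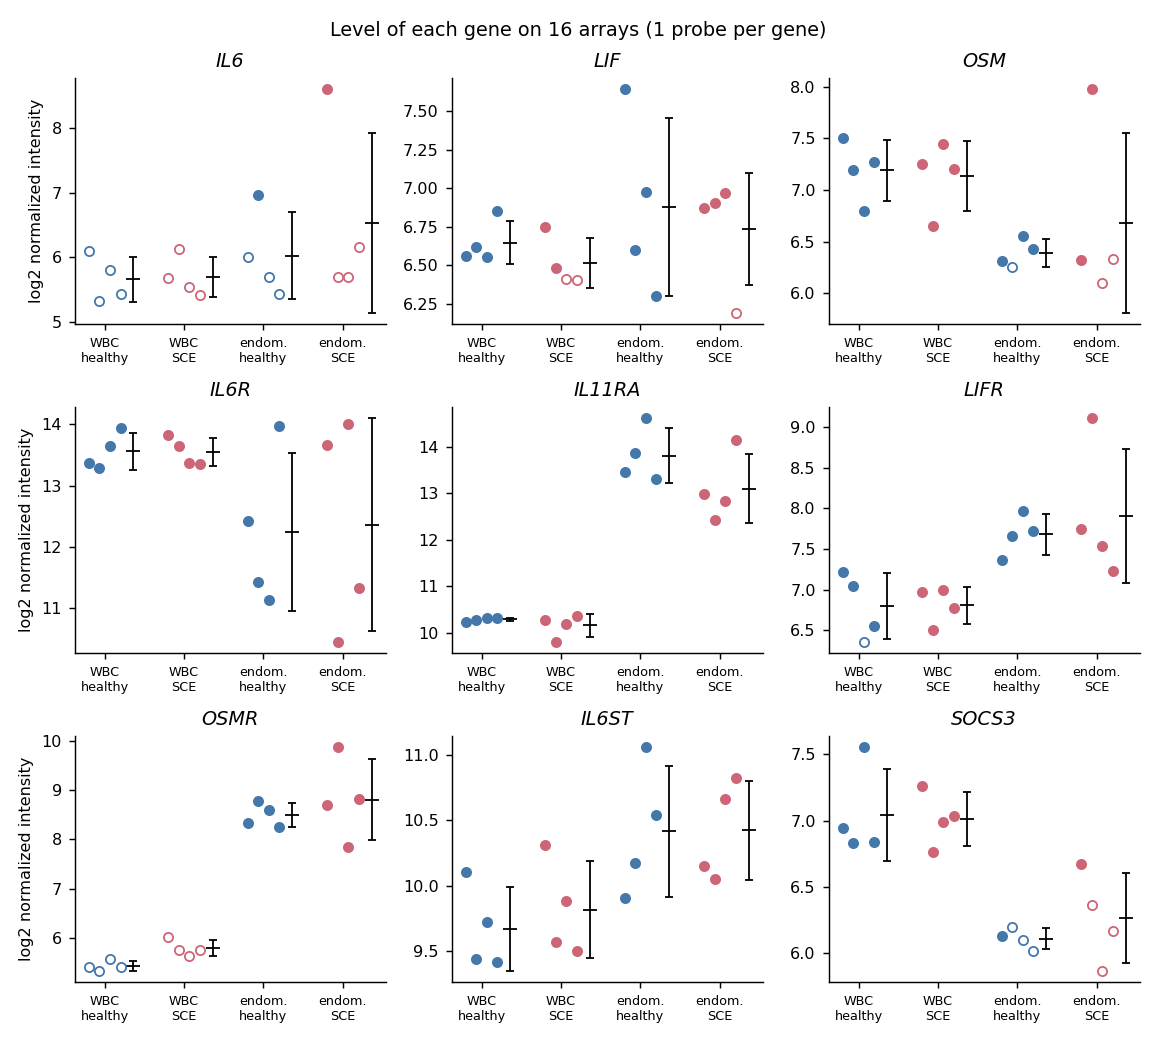
Log2 normalized intensity of each gene on the 16 arrays, with 1 point per cow in the 4 groups (blue for healthy, red for SCE cows). Open circles were not well above background, and the bar beside each group is the mean with 1 SD over 4 cows. OSMR and IL11RA separated the tissues, IL6R spread widely in endometrium from 10.46 to 14.00, and IL6 was above background in the endometrium of 2 cows.

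Among the ligands, IL6, the cytokine that names the family, was well above background in endometrium of only 2 cows and in WBC of none. Its level in endometrium was 6.01, 6.96, 5.70 and 5.44 in healthy cows and 8.60, 5.70, 5.69 and 6.15 in SCE cows. Healthy cow 850 and SCE cow 718 were the cows above background, so the presence of signal did not follow the SCE label. In WBC the level lay between 5.33 and 6.13. Since no WBC array and only 2 of 8 endometrium arrays measured IL6, the tissue difference was read mostly against background signal and gives no bound on the fold. The difference of the levels was 0.60 (SE 0.36) and did not pass the test (limma adjusted p = 0.30). With each cow left out it ran from 0.26 to 0.82. The other IL6 probe was also highest in cow 718, at 7.41, and was not well above background on any other array. In cow 718 the endometrium also had the highest mean level of the leukocyte markers, at 11.86 against 10.70 to 11.38 in the other cows, and of the plasma cell markers, at 11.71 against 9.37 to 10.43. The same held for the T cell markers, at 10.95 against 10.23 to 10.5, and the monocyte and macrophage markers, at 11.65 against 10.22 to 11.27. It did not hold for the neutrophil and B cell markers. The part of these markers in the IL6 level was not tested.

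LIF, the ligand of LIFR, had a weak signal in both tissues. The LIF level ranged from 6.19 to 7.64 in endometrium and from 6.41 to 6.85 in WBC, with overlap. Healthy cow 841 was highest. The difference was 0.23 (SE 0.17, limma adjusted p = 0.76), and it passed at 0.86 (adjusted p = 0.00655) with each tissue normalized on its own. The other LIF probe was not well above background on any array.

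OSM, which encodes oncostatin M, a product of activated leukocytes, was well above background on 8 of 8 WBC arrays and 5 of 8 endometrium arrays. The OSM level in WBC was 7.50, 7.19, 6.80 and 7.27 in healthy cows and 7.25, 6.65, 7.44 and 7.20 in SCE cows. In endometrium it was 6.31, 6.26, 6.56 and 6.43 in healthy cows and 6.32, 7.97, 6.10 and 6.33 in SCE cows. Endometrium was below WBC in 7 of 8 cows, and cow 833 was the exception. The OSM difference was -0.63 (SE 0.23, limma adjusted p = 0.113) and did not pass. Without cow 833 the difference was -0.92 and passed (limma adjusted p = 5.67e-05), and with no fold threshold it also passed (adjusted p = 0.0226). It was -1.06 with the processed signal scaled to the 75th percentile (adjusted p = 0.0585) and 0.03 with each tissue normalized on its own (adjusted p = 1), and it did not pass in either.

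Among the receptors, OSMR, the chain that pairs with gp130 for oncostatin M, was expressed in endometrium, while none of the WBC arrays was well above background for it. The OSMR level in endometrium was 8.35, 8.79, 8.61 and 8.25 in healthy cows and 8.70, 9.88, 7.85 and 8.82 in SCE cows. In WBC it was 5.41, 5.33, 5.56 and 5.39 in healthy cows and 6.02, 5.75, 5.62 and 5.75 in SCE cows. The tissues did not overlap. OSMR was at least 7.14-fold higher in endometrium, a bound taken from the lowest signals that count as well above background and not itself tested. The measured difference was 3.05 (SE 0.21, limma adjusted p = 6.16e-09), and the other OSMR probe was at least 2.96-fold higher.

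IL11RA, the specific chain for interleukin-11, was expressed in both tissues and was higher in endometrium in all 8 cows. The IL11RA level in endometrium was 13.47, 13.87, 14.62 and 13.30 in healthy cows and 12.99, 12.43, 12.83 and 14.16 in SCE cows. In WBC it was 10.24, 10.28, 10.32 and 10.32 in healthy cows and 10.28, 9.81, 10.20 and 10.36 in SCE cows. WBC of the 8 cows thus lay within a narrow range, and endometrium within a range several times as wide. The difference was 3.23 (SE 0.23), or 9.40-fold (limma adjusted p = 8.54e-09, exact sign-flip permutation p = 0.00781, the smallest that 8 cows allow). The other IL11RA probe differed by 1.18 (SE 0.19, limma adjusted p = 3.86e-04).

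LIFR, the signalling chain for LIF, was higher in endometrium by each of its 4 probes. The LIFR level in endometrium was 7.36, 7.67, 7.96 and 7.73 in healthy cows and 7.75, 9.11, 7.53 and 7.23 in SCE cows. In WBC it was 7.22, 7.05, 6.36 and 6.55 in healthy cows and 6.96, 6.50, 7.00 and 6.77 in SCE cows. The tissues met closely but did not overlap. The difference was 0.99 (SE 0.23), or 1.99-fold in signal (limma adjusted p = 0.00656), and it was 0.74 without cow 833 (limma adjusted p = 0.0068). Over 15 alternative settings it ran from 0.74 to 1.74 and passed in each. For the other 3 LIFR probes no WBC array was well above background, and endometrium was at least 2.27-fold, 3.36-fold and 2.09-fold higher by them.

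IL6ST, which encodes the shared chain gp130, was well above background on all 16 arrays and differed least between the tissues among the receptors called. The IL6ST level ranged from 9.90 to 11.06 in endometrium and from 9.41 to 10.31 in WBC. The tissues overlapped, and endometrium was higher in 6 of 8 cows. The difference was 0.68 (SE 0.19, limma adjusted p = 0.0414), and it no longer passed with the cow as a block (adjusted p = 0.0691) or without any single one of cows 836, 846, 850, 877 and 883. Over 15 alternative settings it ran from 0.56 to 1.66, passed in 9 and had a lowest limma adjusted p of 3.93e-06. The other IL6ST probes differed by 0.56 (SE 0.15, limma adjusted p = 0.0637) and 0.35 (SE 0.14, limma adjusted p = 0.411). Over the same settings these probes ran from 0.46 to 1.54 and from 0.27 to 1.095, and passed in 4 and 2 of them. The call of IL6ST thus depended on the setting.

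**Figure D2:**
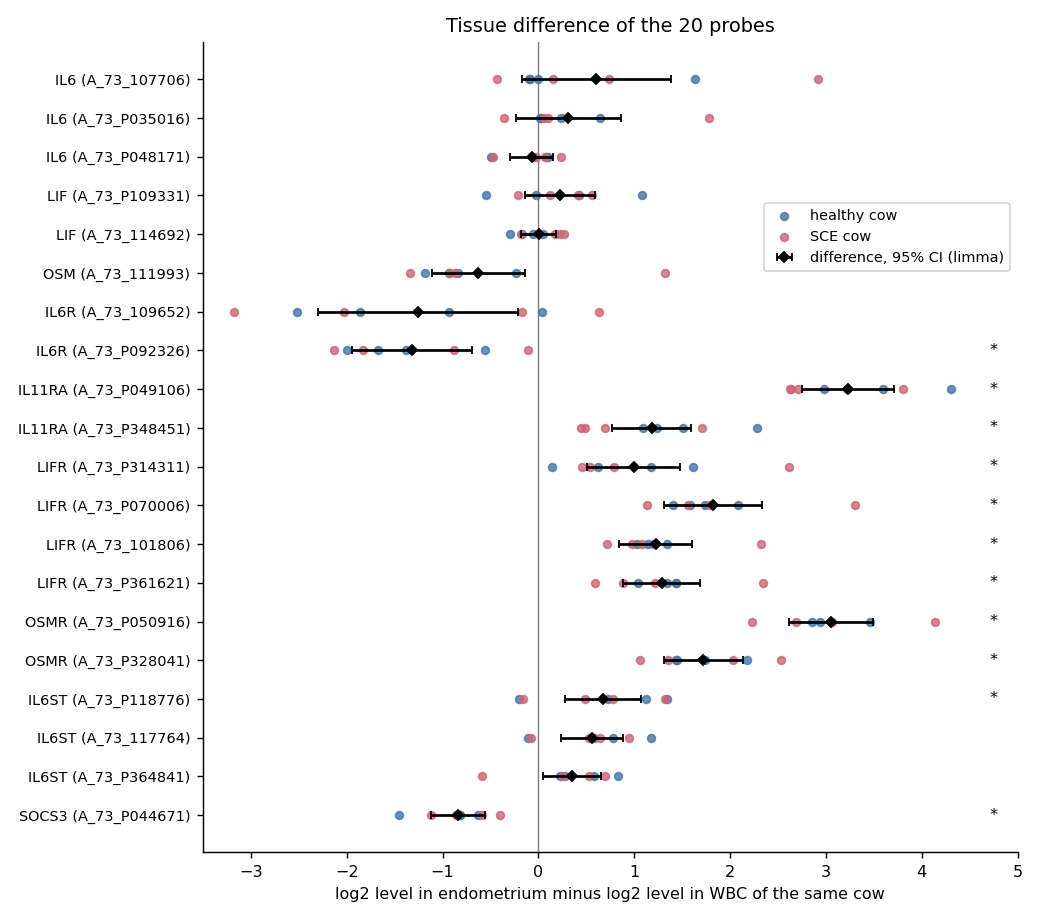
Log2 level in endometrium minus log2 level in WBC of the same cow for the 20 probes, with 1 point per cow (blue for healthy, red for SCE) and the limma difference with its 95% confidence interval (diamonds). Asterisks mark probes with an adjusted p of at most 0.05. The OSMR, IL11RA and LIFR probes lie right of 0 in every cow, SOCS3 lies left of 0 in every cow, and cow 833 is the right-most point of each LIFR and OSMR probe. No WBC array was well above background for the IL6 and OSMR probes and 3 of the 4 LIFR probes, so their points are set against background signal.

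IL6R, the chain that binds interleukin-6, was even in WBC and uneven in endometrium. The IL6R level in WBC was 13.36, 13.28, 13.65 and 13.94 in healthy cows and 13.83, 13.64, 13.37 and 13.36 in SCE cows. In endometrium it was 12.43, 11.42, 11.13 and 13.98 in healthy cows and 13.66, 10.46, 14.00 and 11.33 in SCE cows. Cows 836, 883 and 718 thus had endometrial levels within or just above the range of WBC, and the other cows lay clearly below, with SCE and healthy cows on both sides. The difference was -1.25 (SE 0.49) and did not pass (limma adjusted p = 0.0628), and this call depended on the setting. It passed with the cow as a block (adjusted p = 0.0498), without cow 836 (-1.56, adjusted p = 0.0251) and without cow 883 (-1.48, adjusted p = 0.0288). It also passed with the processed signal scaled to the 75th percentile (-1.68, adjusted p = 0.00709), over probes well above background alone (adjusted p = 0.0484), with no fold threshold (adjusted p = 0.0327) and with the mean of both probes (-1.29, adjusted p = 0.0206). With each tissue normalized on its own it was -0.66 (adjusted p = 0.357), and without any 1 of the other cows it did not pass (adjusted p = 0.0504 to 0.164). The other IL6R probe, whose sequence is given above, put the same cows high and low, with 8.79 and 8.98 in cows 718 and 836, cow 883 slightly above them, and 7.17 to 7.91 in the rest. By this probe WBC was higher in all 8 cows, by -1.32 (SE 0.29, limma adjusted p = 0.00309), a call lost with each tissue normalized on its own (-0.39, adjusted p = 0.546).

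SOCS3, the feedback inhibitor that binds gp130, was higher in WBC in all 8 cows. The SOCS3 level in WBC was 6.94, 6.83, 7.55 and 6.84 in healthy cows and 7.26, 6.76, 6.99 and 7.03 in SCE cows. In endometrium it was 6.13, 6.20, 6.10 and 6.01 in healthy cows and 6.68, 6.36, 5.87 and 6.17 in SCE cows. The tissues did not overlap, and cow 718, the cow with the highest endometrial IL6, also had the highest endometrial SOCS3. Only 2 of 8 endometrium arrays, those of cows 841 and 718, were well above background for SOCS3. The difference was -0.84 (SE 0.13), or 1.79-fold in signal (limma adjusted p = 8.47e-04), and it was -0.24 (adjusted p = 0.769) with each tissue normalized on its own. Over 15 alternative settings it ran from -1.71 to -0.24 and passed in 14.

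The spread of the receptors among the 8 endometrial biopsies was set beside marker genes of cell types, since a biopsy holds epithelium, stroma and vessels in varying amounts. IL6R was set beside the mean level of 5 epithelium markers, of which KRT8 and KRT19 were higher in WBC by their brightest probes. That mean was 12.59, 11.79, 11.05 and 12.80 in healthy cows and 12.67, 11.77, 12.95 and 11.85 in SCE cows, so the 3 cows with the highest IL6R had the highest epithelium means. Over the 8 arrays Pearson's r was 0.88 (exact permutation p = 0.00804, adjusted 0.265) and Spearman's rho 0.95 (exact permutation p = 0.00114, adjusted 0.0753), and r was 0.94 without the 2 arrays farthest from the median. With the mean of the 4 uterine epithelium markers IL6R had no such relation, with r = 0.12 (exact permutation p = 0.776, adjusted 0.949), rho = 0.05 (exact permutation p = 0.935, adjusted 0.979) and r = -0.60 without 2 arrays. IL11RA was highest in cows 877 and 846, which also had the highest means of 6 stroma markers, while cow 850, next for IL11RA, had a lower stroma mean than most. The stroma mean was 14.02, 13.80, 14.56 and 14.15 in healthy cows and 13.99, 12.92, 13.53 and 14.55 in SCE cows. Here r was 0.85 (exact permutation p = 0.00672, adjusted 0.265), rho was 0.83 (exact permutation p = 0.0154, adjusted 0.507), and r was 0.66 without the 2 arrays farthest from the median. Cow 833, highest for LIFR, OSMR and OSM, had an endothelium marker mean of 13.10 against at most 11.07 in the other cows. Its neutrophil marker mean of 9.29 (8.37 to 9.12 in the others) and erythroid marker mean of 9.55 (8.67 to 9.03) were also the highest. The endometrium array of cow 833 was the one with the low median signal of 79, and the part of signal in these values was not tested. LIFR and the endothelium mean gave r = 0.92 (exact permutation p = 0.0222, adjusted 0.366) and rho = 0.50 (exact permutation p = 0.216, adjusted 0.793), and r was 0.00 without cows 833 and 846, so that relation rested on those arrays. LIFR and the neutrophil mean gave r = 0.78 (exact permutation p = 0.014, adjusted 0.308) and rho = 0.71 (exact permutation p = 0.0576, adjusted 0.793), with r = 0.55 without cows 718 and 833. OSMR and the endothelium mean gave r = 0.83 (exact permutation p = 0.0378, adjusted 0.499) and rho = 0.38 (exact permutation p = 0.36, adjusted 0.969), with r = 0.72 without cows 833 and 846. These were chosen from 66 relations (6 members by 11 marker lists), of which 0 passed the adjusted threshold of 0.05. Every list was read from the same arrays as the members, and the part of cell composition in the levels was not tested.

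**Figure D3:**
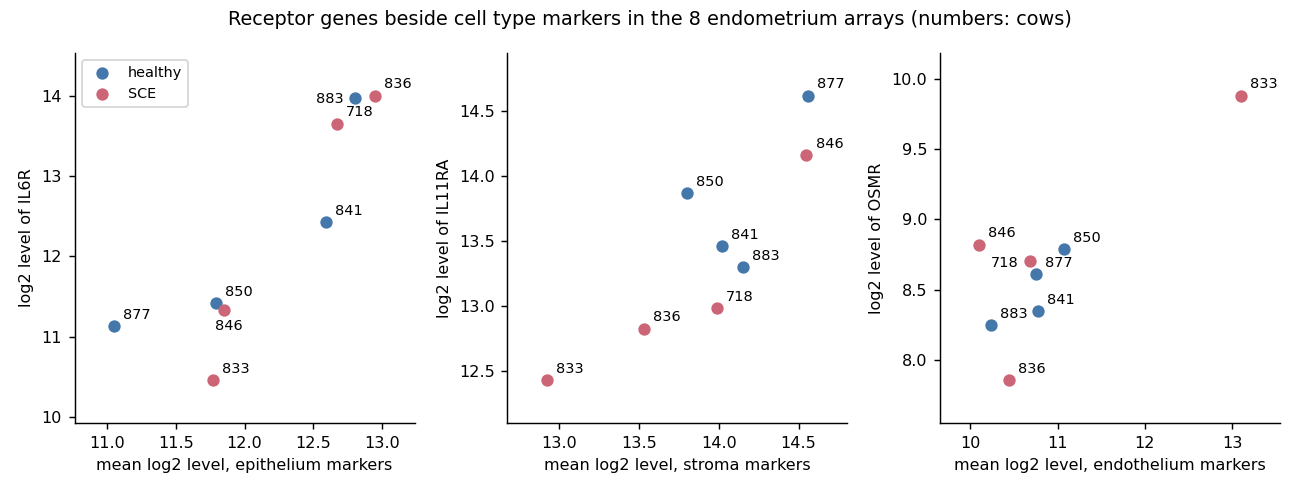
Log2 level of IL6R, IL11RA and OSMR on the 8 endometrium arrays (vertical axes) against the mean log2 level of the epithelium, stroma and endothelium markers (horizontal axes), with 1 point per cow, labelled by its number (blue for healthy, red for SCE). The 3 cows with the highest IL6R have the highest epithelium means, the 2 cows with the highest IL11RA (877 and 846) the highest stroma means, and cow 833 lies alone at an endothelium mean of 13.10.

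The labelled tissues were checked against the same markers. Every measured leukocyte (4), neutrophil (5), T cell (6), B cell (2), platelet (3) and erythroid (3) marker was higher in WBC, as were 4 of 7 monocyte and macrophage markers. Of the markers of solid tissue, 3 of 5 epithelium, 4 of 6 stroma, 3 of 4 endothelium, 3 of 4 smooth muscle and 1 of 4 uterine epithelium markers were higher in endometrium, with COL1A2, LUM, HOXA10 and CNN1 differing by 11.11, 8.56, 8.24 and 8.26. The brightest probes of KRT8, KRT19 and DCN were instead higher in WBC, and of 3 plasma cell markers SDC1 was higher in endometrium and MZB1 in WBC.

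SCE and healthy cows were then compared within each tissue, which asks whether the disease moved the family. None of the 9 genes passed in endometrium or in WBC. In endometrium 0% of all probes passed limma's adjusted test, and 0.453% had an unadjusted p of at most 0.05, among them 0 of 20 member probes. In WBC 0% passed and 0.122% had such an unadjusted p, again with 0 of 20 member probes. In the test of whether the SCE difference itself differed between the tissues, 0% passed, 0.496% had such an unadjusted p, and no member probe did. With 4 cows against 4 the exact permutation test over the 70 splits cannot give a p below 0.029.

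**Figure D4:**
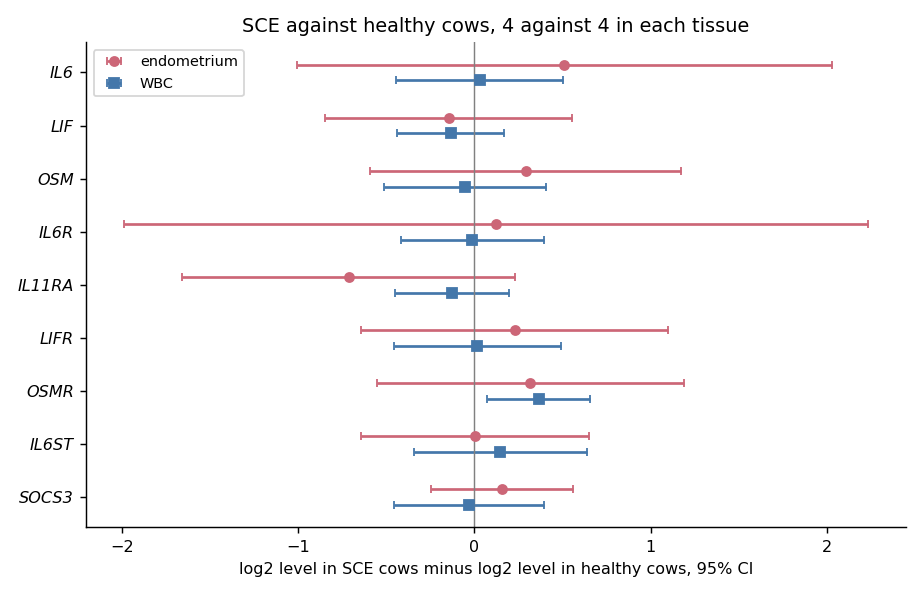
Log2 level in SCE cows minus log2 level in healthy cows for each gene, in endometrium (circles) and in WBC (squares), with 95% confidence intervals from limma and 4 cows in each group. Intervals are wide in endometrium, widest for IL6R (-1.99 to 2.23), and every interval but that of OSMR in WBC, where no array was well above background for OSMR, includes 0.

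IL11RA had the largest difference among the receptors in endometrium, with a mean of 13.82 ± 0.59 (SD, n = 4) in healthy cows and 13.10 ± 0.74 (SD, n = 4) in SCE cows. SCE cows 718, 833 and 836 lay below all healthy cows, but SCE cow 846, at 14.16, lay among them. The difference was -0.71 (95% confidence interval -1.66 to 0.23, exact permutation p = 0.171, two-sided), and the other probe differed by -0.61 (exact permutation p = 0.171). The stroma marker mean was also lowest in cows 833 and 836, and its part was not tested.

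For IL6 the endometrial difference of 0.51 (95% confidence interval -1.01 to 2.03) rested on cow 718 and was -0.18 without it. For OSMR, LIFR and OSM the endometrial differences of 0.32, 0.23 and 0.29 rested on cow 833 and were -0.04, -0.17 and -0.14 without it. IL6R differed by 0.12, IL6ST by 0.00, LIF by -0.15 and SOCS3 by 0.16 between SCE and healthy endometrium. The interval was narrowest for SOCS3, from -0.25 to 0.56, and the interval for IL6ST ran from -0.64 to 0.65, so changes of moderate size in either direction were not detectable with 4 cows in each group.

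In WBC no array was well above background for OSMR or IL6. Their differences between SCE and healthy cows there were differences of background signal and are not read as differences in expression. Of the 20 member probes, 1 had no overlap between SCE and healthy cows in WBC, against 1.3% of all probes, and it was the brighter OSMR probe, whose values were all background signal. In endometrium 0 of 20 member probes had no overlap, against 1.63% of all probes. The other 7 genes differed in WBC by -0.13 (LIF and IL11RA) to 0.15 (IL6ST), and their intervals lay within -0.51 and 0.64.

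Other genes of the pathway, taken from lists of gp130 family members, JAK-STAT transducers, feedback inhibitors and STAT3 target genes, were counted in the same tissue comparison. The counts stand beside the 23.9% of all gene names that were higher in endometrium and the 31.5% that were higher in WBC. The whole array thus also leaned to WBC. The share in WBC was larger among gp130 family genes (4 of 7), JAK-STAT transducers (10 of 16) and feedback inhibitors (7 of 13). Whether these shares differ from that of the array was not tested. Of 7 measured gp130 family genes outside the members, 0 were higher in endometrium and 4 in WBC, with a median difference of -1.30 against -0.15 over all gene names. These 4 were CNTFR, named for the receptor chain for ciliary neurotrophic factor (-1.47, SE 0.30, limma adjusted p = 0.0015), IL27RA, the receptor of interleukin-27 (-1.31), EBI3, a subunit of interleukin-27 (-1.30), and IL27, its other subunit. Whether the CNTFR probe reads that transcript was not tested. IL27 was not well above background on any endometrium array and was at least 2.52-fold higher in WBC. CLCF1, CNTF and IL31 had no probe by name. With each tissue normalized on its own, 1 was higher in endometrium and 3 in WBC, and EBI3 lost its call (-0.37, limma adjusted p = 0.499).

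Of 16 measured JAK-STAT transducers, 2 were higher in endometrium and 10 in WBC, with a median of -0.90. The kinases that gp130 uses were higher in WBC, a direction that JAK2 lost with each tissue normalized on its own, JAK1 by -1.60 (SE 0.10, limma adjusted p = 7.78e-09), JAK2 by -0.83 (SE 0.19, limma adjusted p = 0.00888) and TYK2 by -0.80 (SE 0.12, limma adjusted p = 5.25e-04). In that scaling JAK1 kept the call at -1.04, JAK2 was at 0.07 and TYK2 at -0.20, neither of which passed, and the 16 genes gave 4 calls each way. STAT3, the main transcription factor of the family, differed by -0.35 (SE 0.23, limma adjusted p = 0.506), and ADAM17, the protease that sheds IL6R, by 0.06 (SE 0.16, limma adjusted p = 1). Both moved up with each tissue normalized on its own, STAT3 to 0.55 (limma adjusted p = 0.189) and ADAM17 to 1.06 (limma adjusted p = 3.3e-04). ADAM17 was then called higher in endometrium. The 2 largest differences past the test toward WBC were those of STAT4 (-4.71) and STAT5B (-3.20), transducers of other cytokines, and the 2 toward endometrium those of the adaptor GAB1 (1.84) and the protease ADAM10 (1.68).

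Of 13 measured feedback inhibitors, 4 were higher in endometrium and 7 in WBC, with a median of -0.68, and 6 and 4 with each tissue normalized on its own. SOCS2 (2.28) and SOCS5 (2.03), relatives of SOCS3, were highest toward endometrium, and the phosphatases PTPN6 (-2.70) and PTPN1 (-2.64) toward WBC. CISH, a further relative, was higher in WBC by -1.54 (SE 0.20, limma adjusted p = 2.66e-05), and SOCS1 differed by 0.04 (SE 0.29, limma adjusted p = 1).

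Of 22 measured STAT3 target genes, 5 were higher in endometrium and 8 in WBC, with a median of -0.45. These counts lie close to the shares over all gene names (23.9% and 31.5%), and they were 8 and 5 with each tissue normalized on its own. FOS (4.15) and CCND1 (3.16), regulators of growth, were highest toward endometrium, and the acute phase gene HP (-6.13) and the kinase gene PIM1 (-3.79) toward WBC. BCL3, a regulator of NF-kB, differed by -0.79 (SE 0.19, limma adjusted p = 0.0154). Its call was lost with each tissue normalized on its own (-0.27, limma adjusted p = 0.675) and with the normexp alternative (-0.49, limma adjusted p = 0.0764). BCL3 was well above background on only 2 of 8 endometrium arrays. None of the genes in these 4 lists passed limma's adjusted test between SCE and healthy cows in either tissue, and 0 had an unadjusted p of at most 0.05.

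**Figure D5:**
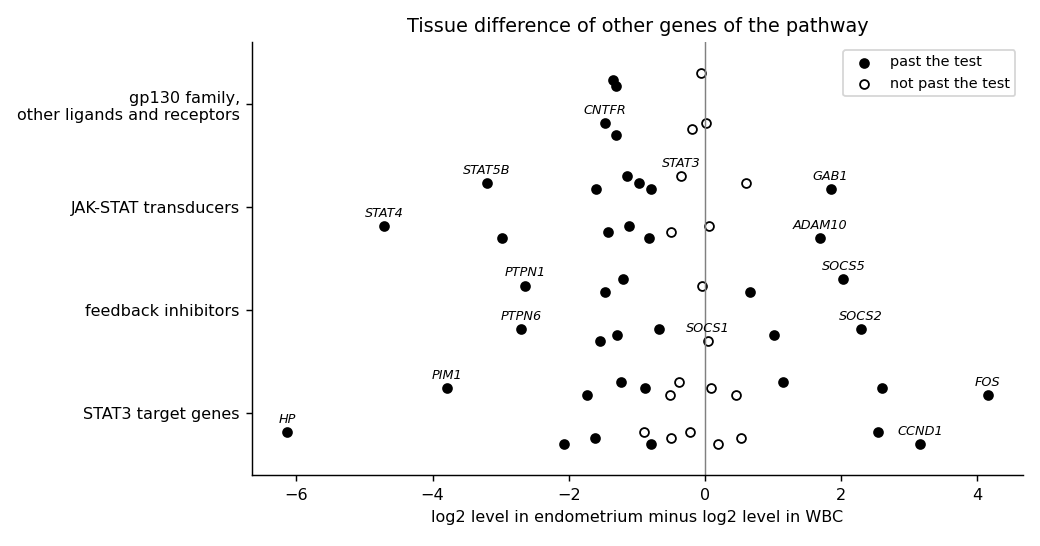
Log2 level in endometrium minus log2 level in WBC (horizontal axis) for the other genes of the pathway in 4 lists, with 1 point per gene, filled where limma's adjusted p was at most 0.05 and some genes named. Points are spread vertically for legibility. The filled points lie on both sides of 0 in each list except that of the gp130 family, whose 4 filled points all lie below 0.

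The genes whose pattern over the cows was most like that of SOCS3 were read in each tissue separately, as a description over 8 arrays that share their cows and normalization. In endometrium these were UGCG (Pearson r = 0.975), NCOA7 (0.969), RASAL3 (0.966), KLF4 (0.966) and FYB (0.964), out of 27622 probes well above background on all 8 arrays. SOCS3 itself was well above background on only 2 of these 8 arrays, so this order was read mostly against signal near background. In WBC they were the probes named DN513167 (0.982), RBM33 (0.958), TC402627 (0.950), ANKS4B (0.947) and BCAP31 (0.944), out of 28355 probes. Spearman's rho of the listed probes ran from 0.786 (RASAL3) to 0.976 in endometrium and from 0.857 to 0.976 in WBC. SOCS3 itself was highest in cow 718 in endometrium (6.68) and in cow 877 in WBC (7.55). The r values were picked as the highest of all probes compared, and their size was not tested.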

How the data were processed

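Data of 16 arrays were read from the scanner files. The authors extracted spot intensity with the Agilent scanner software (Feature Extraction 10.10.1.1) and left the deposited intensities unnormalized, together with a table of normalized intensity that matches quantile-normalized scanner medians to a median of 0.0415%. From the deposited intensities, log2 median signals were taken here without background subtraction. Control spots (1319 per array) and outlier-marked spots were left out, arrays quantile-normalized and spots of a probe averaged. Differences were tested with limma 3.58.1 in R 4.3.3 (lmFit, then treat at 1.2-fold, Benjamini-Hochberg over all probes at 0.05). The tissue comparison used all 16 arrays in 4 groups, and SCE was compared within 8 arrays. Exact permutation tests used 256 sign flips or 70 splits, two-sided. A fold against a group not well above background on any array was computed as a bound.

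Samples were grouped by their labels. The 2 arrays of a cow come from the same animal, so the cow was the block of an alternative fit, and deviations of the paired arrays correlated at -0.329 to 0.141. The number of arrays limits the precision. The members, lists and tests were chosen with earlier results of these data known. Named genes were the members, 12 pathway genes, and the 2 largest differences in each direction per list. The test was also run on simulated data, and nothing about its behaviour on these arrays is drawn from that run. Alternatives were within-tissue normalization, normexp (offset 50), the scanner's processed signal at its 75th percentile, the authors' table, a filter on dim probes, no fold threshold, means over probes, blocks for cow or slide row, all arrays in 1 fit, and leaving out each cow.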

Additional observations from a re-analysis of the deposited data

Results flagged for a closer look

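The groups of 4 arrays checked here came from the member probes and from the probes outside the rule that are described at the end. Groups with only background signal were not left out. Among 92 groups of 4 arrays, 6 held an array whose gap to the nearest other array was a larger share of the group's range than Dixon's critical value allows. That is near the share of about 1 in 20 that chance gives. Each of the 6 was a single array far from the other 3 of its group, and no cause was tested. Endometrial IL6 of SCE cow 718 stood at 8.60 against 5.69 to 6.15 (gap ratio 0.841), and by the other IL6 probe at 7.41 against 5.29 to 5.61 (0.848). Endometrial OSM of SCE cow 833 stood at 7.97 against 6.10 to 6.33 (0.874). Endometrial LIF of SCE cow 846 stood at 6.19 against 6.87 to 6.97 (0.871), and was the array of that group not well above background. In WBC, SOCS3 of healthy cow 877 stood at 7.55 against 6.83 to 6.94 (0.847). By its dimmer probe, IL11RA in WBC of SCE cow 833 stood at 6.95 against 7.16 to 7.19 (0.901).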

How the results depend on the processing

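Probes past limma's adjusted test between endometrium and WBC numbered 25111, 13966 when the probes of a gene name were averaged (fewer features tested), and 23580 to 27022 when single cows were left out. The share of these calls higher in endometrium moved from 42% to 79.2% with each tissue normalized on its own. No probe passed in SCE against healthy cows in either tissue under any alternative run. In the test of the SCE effect in endometrium against that in WBC 0 probes passed, and 0 to 8 with each cow left out, where 8 passed without cow 846. With an unadjusted p the counts were 211 in endometrium (100 to 936 over the alternatives), 57 in WBC (23 to 675) and 231 for the difference between tissues (103 to 832). Member probes past the tissue test numbered 11, and 10 to 12 with each cow left out. Which members were called changed more with the scaling. With each tissue normalized on its own, SOCS3 and the dimmer IL6R probe lost their calls and the brighter LIF probe gained one. Over the alternatives that kept single probes, the OSMR, IL11RA and LIFR tissue calls of all their probes held. The cow as a replicate block moved the tissue calls of IL6R (-1.25, adjusted p = 0.0498) and IL6ST (0.68, adjusted p = 0.0691) across the threshold and no call of the other 7 genes; it left 24415 probes called between tissues. Signs turned as follows, each for a value that was not called, and the cause was not tested. With each tissue normalized on its own, OSM between tissues was 0.030 and the difference of the OSMR SCE effects 0.044. The latter was 0.29 with the 75th percentile and 0.14 with normexp, and for LIF it was 0.17 with the 75th percentile, 0.023 with normexp and 0.11 with averaged probes. LIFR in WBC was -9.2e-04 with the 75th percentile, IL6 in WBC -0.019 with averaged probes and IL6ST in endometrium -0.0027 with the authors' table. With each cow left out, SCE minus healthy in endometrium ran from -0.18 to 0.82 for IL6, -0.42 to 0.76 for IL6R, -0.17 to 0.22 for IL6ST, -0.34 to 0.11 for LIF, -0.17 to 0.45 for LIFR, -0.14 to 0.49 for OSM and -0.038 to 0.64 for OSMR. In WBC it ran from -0.12 to 0.17 for IL6, -0.10 to 0.11 for IL6R, -0.019 to 0.29 for IL6ST, -0.13 to 0.16 for LIFR, -0.18 to 0.11 for OSM and -0.11 to 0.14 for SOCS3. The difference of the SCE effects between tissues ran from -0.21 to 0.91 for IL6, -0.47 to 0.80 for IL6R, -0.46 to 0.11 for IL6ST, -0.27 to 0.27 for LIF, -0.29 to 0.45 for LIFR, -0.25 to 0.64 for OSM and -0.41 to 0.22 for OSMR. Signal over background limits IL6 and LIF in both tissues, OSM and SOCS3 in endometrium, and OSMR and 3 of 4 LIFR probes in WBC.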

Other observations

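Some probes outside the rule on gene names touch the members, and they were chosen after their values were seen. A probe described as similar to interleukin 11 on chromosome 18 (NP13360600) was higher in WBC, at 7.88 ± 0.17 (SD, n = 8), than in endometrium, at 6.41 ± 0.11 (SD, n = 8), by -1.46 (SE 0.09, limma adjusted p = 5.64e-09). Whether it reads the IL11 transcript was not tested. A probe that starts inside the last bases of the brighter IL11RA probe (TC395412) was higher in endometrium by 5.28 (SE 0.24, limma adjusted p = 3.23e-11), and SCE endometrium differed from healthy endometrium by -0.81 (exact permutation p = 0.143). A probe just beside the SOCS3 probe (TC415796) was higher in WBC, by -0.99 (SE 0.12, limma adjusted p = 3.19e-05).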
